A study of Mus musculus with 217 samples.

Results

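*Abhd1* and *Preb* are 2 overlapping genes of chromosome 5 among the 54532 genes counted in these RNA-Seq tables, and they lie 3.81 Mb from the start of *Htt*, the gene targeted in the LacQ140 mouse. They were chosen by their differences between LacQ140 and WT mice and between mice with and without lowering of mutant *Htt* in earlier results of the same data, in which the pair was put together as risen. *Abhd1* is named for the alpha/beta hydrolase domain family, whose members are mostly enzymes that cleave esters, lipids among them, although the mouse annotation used here gives it no protein. *Preb*, also known as Sec12, encodes the membrane protein of the endoplasmic reticulum that loads the small GTPase Sar1 with GTP, the first step in building the COPII coat that carries new proteins out of that compartment. *Htt* encodes huntingtin, and an expanded CAG repeat in it causes Huntington disease, in which the spiny projection neurons of the striatum are the most affected cells.

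The data are 217 mRNA libraries from 110 mice, 107 from the corpus striatum and 110 from the cerebral cortex, with 107 mice giving both tissues. All mice were on a C57BL/6 background and carried the beta-actin-LacIR tg transgene, which expresses a lac repressor from the ubiquitous beta-actin promoter. WT mice had the genotype Hdh(LacO-+/+):beta-actin-LacIR tg, and LacQ140 mice had Hdh(LacO-140Q/+):beta-actin-LacIR tg, in which lac operators next to the *Htt* start let the repressor lower the mutant allele in part unless isopropyl β-D-1-thiogalactopyranoside (IPTG) is given. WT mice received no IPTG, WT + IPTG and LacQ140 mice received it from embryonic day 5 onward, LacQ140_A mice never received it, and LacQ140_2M and LacQ140_8M mice received it until the age of 2 and 8 months. Mice were analysed at 6 months (100 libraries) and 12 months (117 libraries, with LacQ140_8M at that age only), with 9 or 10 mice in each group of 1 tissue and age. By the study's methods the allele was made in W9.5 embryonic stem cells targeted in 2 independent clones, and the mice were then backcrossed to C57BL/6J with marker-assisted selection. The 6-month and 12-month libraries carry different batch labels and are in separate tables, so age and batch cannot be told apart and values of the 2 ages are only set side by side.

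On GRCm38, *Abhd1* (ENSMUSG00000006638) spans chr5:30950066-30955091 on the plus strand, and *Preb* (ENSMUSG00000045302) spans chr5:30950853-30960361 on the minus strand. Of the 1352 exonic bases of the transcript Abhd1-202, 1169 (86.5%) lie opposite the exons of the coding *Preb* transcript, and none of these is in the *Preb* coding sequence. Exons 2 to 9 of Abhd1-202 lie wholly within the last exon of that transcript (chr5:30950853-30955737), and exon 1 alone lies outside it. The strand setting of the counting is not given in the sources used here, so for the other 8 exons reads of *Abhd1* and of *Preb* cannot be told apart by position. The stretch of exon 1 from its first ATG on, which *Preb* does not cover, is shown here with the ATG in capitals (chr5:30950111-30950248, GRCm38, plus strand, by the GENCODE vM21 transcript).
Abhd1-202, exon 1 from the ATG: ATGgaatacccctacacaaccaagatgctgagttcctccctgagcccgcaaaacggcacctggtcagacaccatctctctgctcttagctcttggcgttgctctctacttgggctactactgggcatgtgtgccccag

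GENCODE vM21 lists *Abhd1* as a processed transcript with no protein, and RefSeq calls it a transcribed pseudogene in the C57BL/6J reference. The model Abhd1-202 and a second model differ in their first and last bases and, between these, by a single base in the middle of the gene, and the stretch around it is shown because their reading frames part there. Abhd1-202 keeps the base at position 30954155 (in capitals), and the second model leaves it out by splitting the exon there.
Abhd1-202: tcgcaggactgaccAttgtctgcatgttg
Second model: tcgcaggactgaccttgtctgcatgttg
From the same ATG, the longest open reading frame has 412 codons in the second model and is shorter in Abhd1-202. The count tables give 1 value per gene, so the reads of the models were not separated.

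Summed counts ran from 33292057 to 68038831 per library. *Htt* was lower in LacQ140_A than in WT mice in all 4 combinations of tissue and age, with log2 fold changes of -0.40 and -0.60 in 6-month striatum and cortex and -0.52 and -0.72 at 12 months (adjusted p = 0.00023, 3.6e-07, 6.5e-08 and 0.0041, edgeR's quasi-likelihood test). Levels are given in CPM, the counts of a gene relative to the library size scaled by the trimmed mean of M-values. In the 12-month cortex *Htt* lay at 11.7 to 42 CPM, against 61.0 to 163 CPM in the other 3 combinations, so these libraries stand apart from the rest. The 6 spiny neuron markers summed to 2750 to 6500 CPM in striatum and 109 to 329 CPM in cortex, and the 6 cortical neuron markers to up to 1570 CPM in cortex and 16.2 to 328 CPM in striatum, with no overlap of the tissues. 4 mice stood apart from their groups at *Abhd1*, in striatum and cortex alike: LacQ140_A F4, LacQ140_A M5 and LacQ140_2M M4 at 6 months, and WT + IPTG F2 at 12 months. Results that rest on them are given with and without them. The deposited 12-month counts carry the word unswapped in their name and the 6-month counts do not. Whether this bears on the 4 mice was not tested.

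*Abhd1* was low in the WT mice and, by group means, 2.44 to 3.13 times higher in LacQ140 than in WT + IPTG mice, in striatum and in cortex and at both ages, and it was as high in the groups with lowering of mutant *Htt*. In the 6-month striatum it ran from 2.24 to 3.71 CPM in WT (median 2.83) and from 2.03 to 3.39 in WT + IPTG (median 2.54), and from 5.80 to 7.91 CPM in LacQ140 (median 6.63). No LacQ140 library reached down to a WT library. LacQ140_A ran from 2.53 to 8.52 CPM (median 7.45) and LacQ140_2M from 2.80 to 8.39 (median 7.53), and their low ends were the 3 mice named above, while the other mice of these groups lay between 5.75 and 8.52 CPM. The mean was 2.64 ± 0.389 CPM in WT + IPTG and 6.78 ± 0.704 in LacQ140 (SD, n = 10 each), a ratio of 2.56.

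The 6-month cortex gave the same picture at somewhat lower values. *Abhd1* ran from 1.52 to 2.29 CPM in WT (median 1.80), from 1.24 to 2.36 in WT + IPTG (median 1.98) and from 5.00 to 6.49 in LacQ140 (median 5.93). LacQ140_A ran from 1.81 to 7.51 CPM (median 6.10) and LacQ140_2M from 1.79 to 7.11 (median 6.54). Again only the 3 mice named above fell into the WT range, and every other LacQ140_A or LacQ140_2M library was at 5.17 CPM or more. The ratio of the LacQ140 mean to the WT + IPTG mean was 3.13.

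At 12 months the striatum held *Abhd1* at 1.52 to 2.80 CPM in WT (median 2.38, n = 9) and at 1.95 to 3.06 CPM in 9 of the 10 WT + IPTG mice, while WT + IPTG F2 was at 7.75 CPM. The LacQ140 values were 5.75 to 9.72 CPM (median 7.55, n = 9). LacQ140_A ran from 5.97 to 9.0 CPM, LacQ140_2M from 6.16 to 7.93 and LacQ140_8M from 5.85 to 9.13, so the groups with lowering lay within the range of LacQ140 and none reached a WT library other than F2.

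In the 12-month cortex *Abhd1* ran from 2.07 to 3.59 CPM in WT (median 2.47) and from 1.95 to 3.47 in WT + IPTG without F2, which was at 6.08 CPM. LacQ140 ran from 5.03 to 7.72 CPM (median 7.01), LacQ140_A from 4.44 to 8.28, LacQ140_2M from 4.38 to 8.37 and LacQ140_8M from 5.54 to 8.18. The SD within the LacQ140 groups was 0.927 to 1.39 CPM here. In the 6-month cortex it was 0.418 CPM in LacQ140, 1.91 in LacQ140_A and 1.57 in LacQ140_2M, or 0.640 and 0.662 in the last 2 without the mice that stood apart. Across all mice the widest gap in *Abhd1* lay between 3.71 and 5.75 CPM in the 6-month striatum, 3.06 and 5.75 in the 12-month striatum, 2.36 and 5.00 in the 6-month cortex and 3.59 and 4.38 in the 12-month cortex, and apart from the 4 mice named above it had all WT mice on its lower side and all LacQ140 mice on its upper side.

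**Figure D1:**
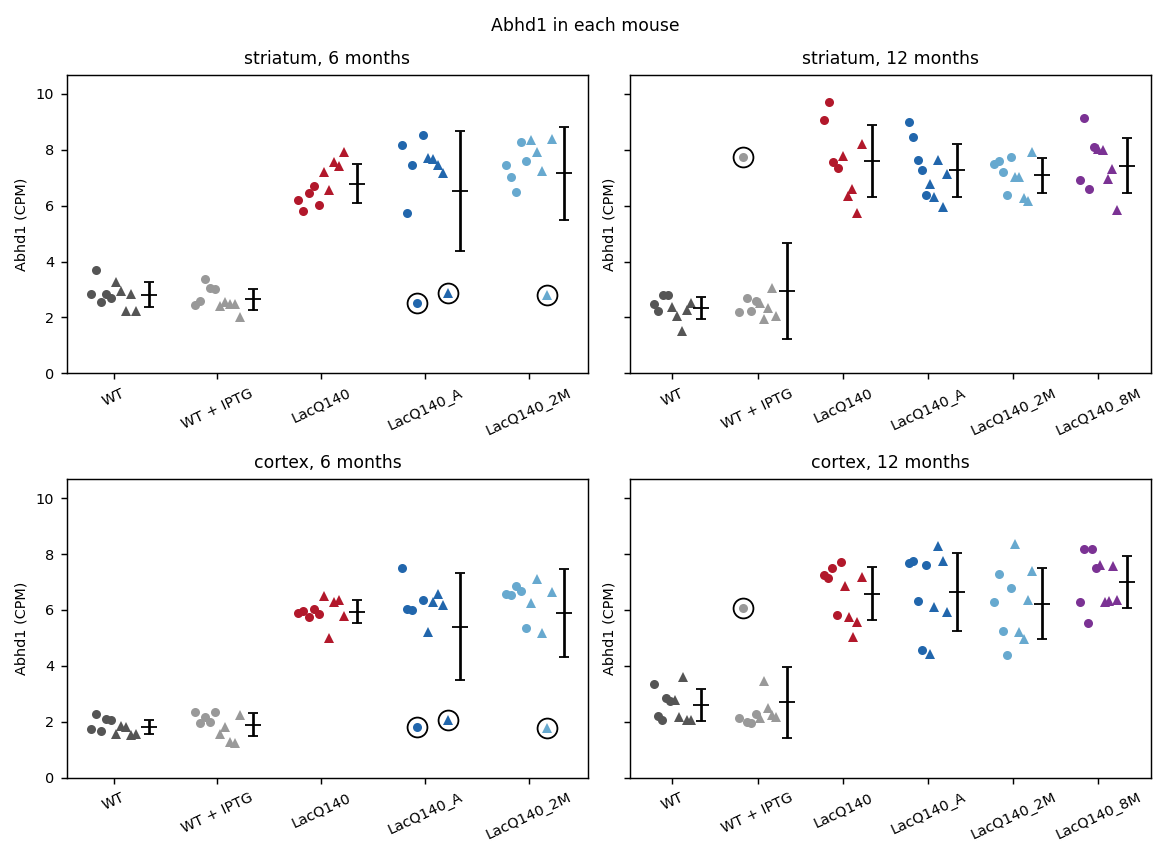
*Abhd1* in CPM (linear axis from 0) for each mouse, by group, in 4 panels of tissue and age; circles are females, triangles males, black bars the group mean and SD, and rings mark the 4 mice that stood apart. WT and WT + IPTG mice sit at or below 3.71 CPM and LacQ140 groups at or above 4.38 CPM except for the ringed mice.

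The differences between LacQ140 and WT + IPTG chose this gene, so they are given as a description without a test. On the log2 scale *Abhd1* was higher in LacQ140 by 1.36 (SE 0.146) and 1.65 (SE 0.176) in 6-month striatum and cortex and by 1.37 (SE 0.137) and 1.28 (SE 0.144) at 12 months. Without WT + IPTG F2 the 12-month differences were 1.65 (SE 0.0986) in striatum and 1.5 (SE 0.130) in cortex. By the call rule used for all genes (adjusted p under 0.05 and a change of at least 20%) *Abhd1* was called in 4 of 4 combinations of tissue and age and *Preb* in 0 of 4, where 7.93% and 0.881% of all genes were called in 6-month striatum and cortex and 9.44% and 0.0899% at 12 months. At 6 months every LacQ140 library was above every WT + IPTG library for *Abhd1*, as for 0.561% of genes in striatum and 0.0584% in cortex. These counts describe the values that chose the gene and test nothing.

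LacQ140_A and WT mice had neither received IPTG, so this pair compares the genotypes without the drug and with the mutant allele repressed. *Abhd1* was higher in LacQ140_A by 1.21 (SE 0.146) and 1.57 (SE 0.176) on the log2 scale in 6-month striatum and cortex, and by 1.63 (SE 0.145) and 1.36 (SE 0.145) at 12 months. Without F4 and M5 the 6-month values were 1.41 (SE 0.0867) and 1.78 (SE 0.0979). This comparison chose the gene too, so its counts are a description and no test. *Abhd1* was called in 4 of 4 combinations and *Preb* in 0 of 4, with 0.91% and 0.425% of all genes called in 6-month striatum and cortex and 3.15% and 0.0174% at 12 months. At 12 months every LacQ140_A library was above every WT library. This held for 0.181% of genes in striatum and for 0.0029% in cortex, where *Abhd1* was the 1 such gene. Genes with every LacQ140_A library below every WT library were not counted.

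*Abhd1* was about as high with lowering as without. Against LacQ140, the log2 difference of LacQ140_A was -0.05 (SE 0.135) and -0.13 (SE 0.160) in 6-month striatum and cortex and -0.06 (SE 0.126) and 0.01 (SE 0.134) at 12 months. LacQ140_2M differed from LacQ140 by 0.07, -0.02, -0.10 and -0.08 in 6-month striatum, 6-month cortex, 12-month striatum and 12-month cortex, and LacQ140_8M by -0.03 and 0.09 in the 12-month tissues. These 10 comparisons also chose the gene and carry no test, and their 95% intervals reached at most from -0.45 to 0.35. Without the 3 mice that stood apart, which were picked for their *Abhd1* values, the 6-month differences were 0.14 (SE 0.0806) and 0.08 (SE 0.0903) for LacQ140_A and 0.17 (SE 0.0777) and 0.09 (SE 0.0878) for LacQ140_2M in striatum and cortex, so that 3 of these 4 values turned from below to above 0. Neither gene was called in any of the 10. The background for LacQ140_A was 1.88% and 0.00834% of genes called in 6-month striatum and cortex and 0.91% and 0.0435% at 12 months. For LacQ140_2M it was 1.26% and 0% at 6 months and 0.608% and 0.0841% at 12 months, and for LacQ140_8M 0.00565% in striatum and 0% in cortex. For *Htt* itself, with reads of both alleles counted together, the LacQ140_A difference from LacQ140 was -0.21 and -0.20 in 6-month striatum and cortex and -0.25 and -0.49 at 12 months (adjusted p = 0.075, 0.42, 0.049 and 0.19, edgeR). That of LacQ140_2M was -0.20, -0.29, -0.15 and -0.43 in the same order (adjusted p = 0.15, 0.29, 0.56 and 0.49), and that of LacQ140_8M was 0 in the 12-month striatum, with means of 111 CPM in both groups, and -0.41 in cortex (adjusted p = 1.0 each). None of these was called, the 12-month striatal value of LacQ140_A passing on p but lying under the 20% bound. LacQ140 mice themselves had less *Htt* than WT + IPTG mice by -0.36 in the 6-month cortex and -0.40 in the 12-month striatum (adjusted p = 0.0043 and 9e-06), and the differences of -0.12 and -0.14 in the 6-month striatum and 12-month cortex were not called (adjusted p = 0.28 and 0.79).

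*Preb* did not follow *Abhd1*. It lay between 50.9 and 64.1 CPM in striatum in every group at both ages, between 48.5 and 59.9 CPM in the 6-month cortex and between 36.4 and 49.2 CPM in the 12-month cortex, and all groups of a tissue and age overlapped. In the 6-month striatum it was at 57.5 ± 3.37 CPM in WT + IPTG and 57.5 ± 1.93 CPM in LacQ140 (SD, n = 10 each), and in the 6-month cortex at 54.2 ± 2.51 and 54.2 ± 2.58. At 12 months the means were 58.4 ± 3.23 and 56.8 ± 3.11 CPM in striatum (n = 10 and 9) and 43.2 ± 3.18 and 43.2 ± 2.77 in cortex (n = 10 each). Of the pair, only *Abhd1* was higher in LacQ140 mice. The log2 differences of *Preb* between LacQ140 and WT + IPTG were -0.04 in the 12-month striatum and within 0.01 of 0 in the other 3 combinations, with 95% intervals inside -0.12 to 0.13. Between LacQ140_A and WT they ran from -0.11 (SE 0.0635, 12-month cortex) to 0.07 (SE 0.0408, 12-month striatum).

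**Figure D2:**
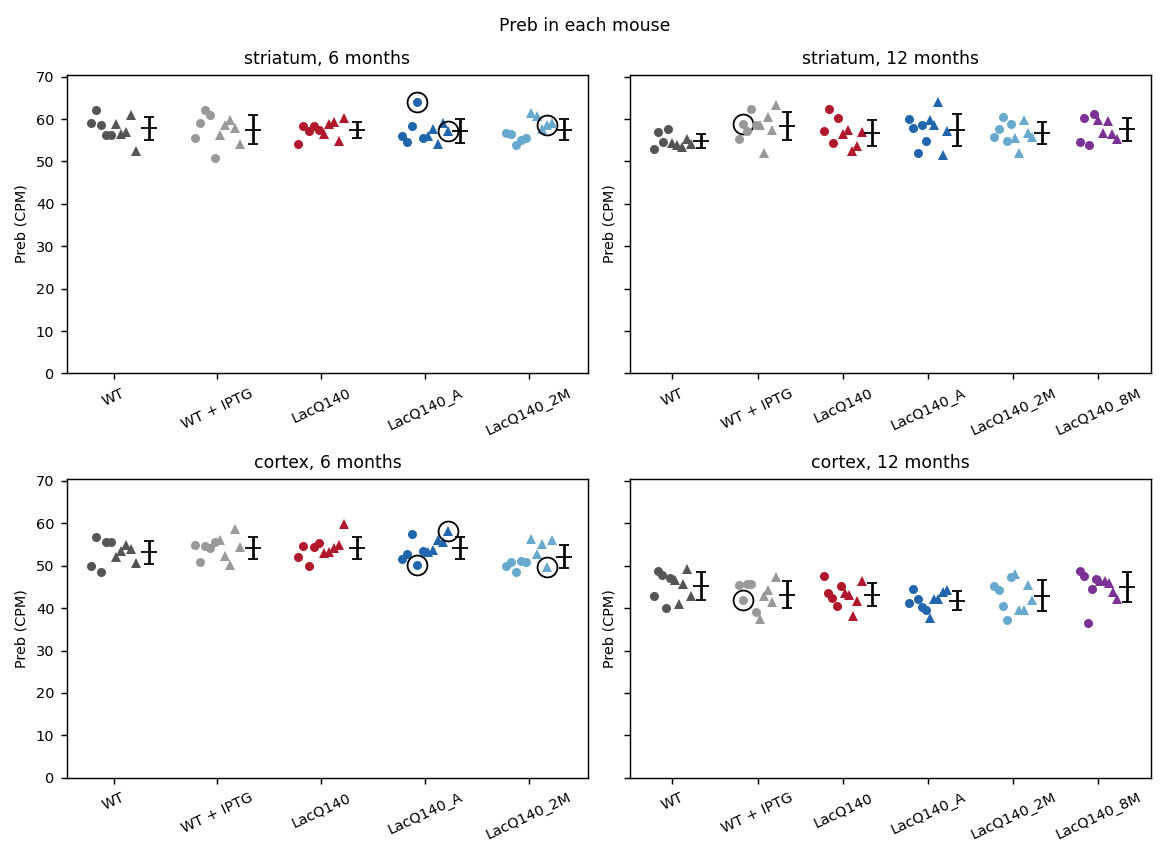
*Preb* in CPM (linear axis from 0) for each mouse, drawn as in the plot of *Abhd1* by mouse, with the same 4 mice ringed. All groups overlap within each panel, and the 12-month cortex sits lowest, at 36.4 to 49.2 CPM.

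In the same libraries of the 6-month striatum the LacQ140 mean exceeded the WT + IPTG mean by 4.14 CPM for *Abhd1* and by -0.04 CPM for *Preb*. In the 6-month cortex the values were 4.05 and -0.0176 CPM. The SD of *Preb* between mice of a group was 1.58 to 3.78 CPM. Per kilobase of exon (1758 bases for *Abhd1*, 7209 for *Preb*) the 6-month striatal level of *Abhd1* was 1.5 CPM per kb in WT + IPTG and 3.86 in LacQ140, and that of *Preb* was 7.98 in each. *Abhd1* had 61 to 455 reads in a library and *Preb* 1121 to 3890.

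WT + IPTG mice were compared with WT mice for the drug itself. This difference follows by arithmetic from those of LacQ140 to WT + IPTG, LacQ140_A to WT and LacQ140_A to LacQ140. Since these chose the genes, the values are a description without a test. *Abhd1* differed by -0.09 (SE 0.157) and 0.05 (SE 0.191) on the log2 scale in 6-month striatum and cortex and by 0.33 (SE 0.157) and 0.07 (SE 0.154) at 12 months. Without WT + IPTG F2, a mouse left out for its *Abhd1* value, the 12-month differences were 0.04 (SE 0.111) and -0.15 (SE 0.139). *Preb* differed by -0.01, 0.03, 0.09 and -0.07 in the same order (SE 0.0411, 0.0433, 0.0408 and 0.0635). Neither gene was called in any of the 4, where 0.584% and 0.609% of genes were called in 6-month striatum and cortex and 0.218% and 0% at 12 months. These counts test nothing. At the *Abhd1* level these intervals leave room for a change of up to 0.64 on the log2 scale, in the 12-month striatum.

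Females and males did not differ at the threshold for either gene. *Abhd1* was higher in females by 0.03 (SE 0.0906) and 0.18 (SE 0.106) on the log2 scale in 6-month striatum and cortex and by 0.22 (SE 0.0726) and 0.08 (SE 0.0806) at 12 months (adjusted p = 0.94, 0.56, 0.21 and 0.84). *Preb* differed by -0.04 to 0.02 (adjusted p from 0.60 to 0.95). In LacQ140 mice of the 12-month striatum the means of *Abhd1* were 7.76 ± 0.979 CPM in 18 females and 6.95 ± 0.786 in 20 males. The difference of the LacQ140 effect between the sexes was -0.51 (SE 0.299) in the 6-month striatum and -0.45, -0.25 and 0.01 in 6-month cortex, 12-month striatum and 12-month cortex for *Abhd1*, with intervals from -1.15 to 0.60, given as a description since it is built from differences that chose the gene. Without WT + IPTG F2 the 12-month values turned from -0.25 to 0.24 in striatum and from 0.01 to 0.49 in cortex. Background calls were 0.154% to 0.279% for sex and at most 0.00565% for the sex difference of the effect.

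Striatum and cortex of the same mice were compared on values scaled together. The fit had a mean per tissue and group and no mouse term, unless the mouse is named as a block. At 6 months *Abhd1* was at 2.71 ± 0.405 CPM in striatum and 1.87 ± 0.342 in cortex of WT mice (SD, n = 20) and was higher in striatum in 19 of the 20, a log2 difference of 0.54 (SE 0.127, adjusted p = 0.0002). In LacQ140 mice of that age the values were 6.75 ± 1.56 and 5.80 ± 1.43 CPM (n = 30), striatum was higher in 27 of 30, and the difference of 0.22 (SE 0.0878, adjusted p = 0.03) stayed under the 20% bound. By these CPM means the tissue difference of *Abhd1* was not smaller in LacQ140 mice. On the log2 scale it was smaller there, with a signed value of -0.32 (interval -0.62 to -0.01). With the mouse as a block, which the shared animal warrants, the same value was -0.31 (SE 0.0730), and without the 3 mice that stood apart it was -0.32 (SE 0.0833). This value is the genotype difference in striatum minus that in cortex, both of which chose the gene, so it carries no test. At 12 months striatum minus cortex was -0.19 (SE 0.111, adjusted p = 0.16) in WT mice (-0.22 without F2, SE 0.0881, adjusted p = 0.029, under the 20% bound) and -0.04 (SE 0.0684, adjusted p = 0.78) in LacQ140 mice, and striatum was higher in 7 of 19 and 16 of 38 mice. Striatum was thus the higher tissue in most mice at 6 months and in fewer mice at 12 months, where the cortex libraries stand apart.

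*Preb* was higher in striatum by less than the 20% bound. At 6 months the log2 difference was 0.08 (SE 0.0276, adjusted p = 0.01) in WT and 0.07 (SE 0.0226, adjusted p = 0.0039) in LacQ140 mice. At 12 months it was 0.18 (SE 0.0362, adjusted p = 3.3e-06) and 0.21 (SE 0.0256, adjusted p = 2.6e-13), with striatum higher in 18 of 19 and 37 of 38 mice. Of all genes 32.8% and 35.4% were called between the tissues of WT and LacQ140 mice at 6 months and 51.9% and 56% at 12 months, so a difference here is common, and for the difference between the genotypes 0.513% and 3.42% were called at 6 and 12 months.

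Values of the same mouse were related as deviations from the group mean of log2(CPM + 0.5), in 24 relations with 100000 permutations within groups, two-sided. *Abhd1* in striatum and cortex of 12-month LacQ140 mice went together (r = 0.45, permutation p = 0.0050, adjusted 0.024; rho = 0.42, permutation p = 0.0097, adjusted 0.047; n = 38), and r was 0.41 without the 2 mice farthest from the median. At 6 months the LacQ140 mice fell into 2 clusters, the 3 mice apart and the other 27. Over all 30 mice r for *Abhd1* was 0.94 (permutation p = 0.00027, adjusted 0.0032; rho = 0.68, permutation p = 0.0029, adjusted 0.023; r = 0.84 without the 2 farthest), and within the 27 it was 0.23 (permutation p = 0.26, adjusted 0.42; rho = 0.37, permutation p = 0.065, adjusted 0.20), so the relation rests on the 3 mice. For *Preb* r was 0.29 over the 30 mice (permutation p = 0.13, adjusted 0.31; rho = 0.39, permutation p = 0.041, adjusted 0.11), which did not pass, and 0.63 within the 27 (permutation p = 0.0013, adjusted 0.010; rho = 0.63, permutation p = 0.0011, adjusted 0.0089), so this relation depends on leaving out mice that were picked for *Abhd1*. In WT mice r for *Abhd1* was 0.29 at 6 months (permutation p = 0.22, adjusted 0.39; rho = 0.28, permutation p = 0.23; n = 20). At 12 months it was 0.56 with F2 (permutation p = 0.094, adjusted 0.25; rho = 0.02, permutation p = 0.94; n = 19) and -0.42 without F2 (permutation p = 0.099, adjusted 0.25; rho = -0.16, permutation p = 0.53; n = 18), so 1 mouse set its sign.

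**Figure D3:**
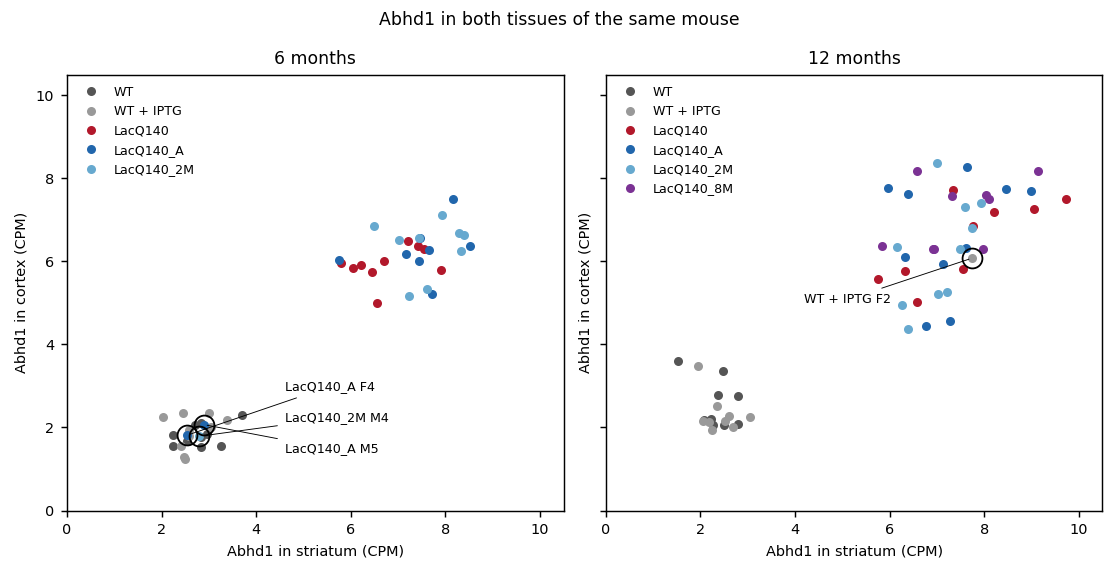
*Abhd1* in striatum (x axis, CPM) and cortex (y axis, CPM) of each mouse with both tissues, at 6 and 12 months, coloured by group, with the 4 mice that stood apart ringed and named. 3 LacQ140_A or LacQ140_2M mice lie among the WT mice at 6 months, and WT + IPTG F2 lies among the LacQ140 mice at 12 months.

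Within groups *Abhd1* and *Preb* went together in the 12-month LacQ140 mice, with r = 0.48 in striatum (permutation p = 0.0042, adjusted 0.024; rho = 0.46, permutation p = 0.0062, adjusted 0.037; n = 38; r = 0.39 without the 2 farthest) and r = 0.65 in cortex (permutation p = 1e-05, the smallest that these permutations can give, adjusted 0.00024; rho = 0.57, permutation p = 0.00039, adjusted 0.0094; n = 40; r = 0.63 without the 2 farthest). At 6 months this relation did not pass in LacQ140 mice, with r = -0.30 in striatum (permutation p = 0.16, adjusted 0.35; rho = -0.04, permutation p = 0.85; n = 30) and 0.11 in cortex (permutation p = 0.58, adjusted 0.77; rho = 0.08, permutation p = 0.67; n = 30), nor within the 27 mice, with r = 0.34 and -0.15 (permutation p = 0.087 and 0.48, adjusted 0.25 and 0.58). In the 12-month cortex *Abhd1* also went with *Htt* (r = 0.53, permutation p = 0.00051, adjusted 0.0041; rho = 0.52, permutation p = 0.00094, adjusted 0.011; n = 40; r = 0.52 without the 2 farthest), which is the tissue and age where *Htt* itself lay far lower than elsewhere. In the 12-month striatum the sign was the opposite and the relation did not pass (r = -0.36, permutation p = 0.030, adjusted 0.090; rho = -0.35, permutation p = 0.041, adjusted 0.11; n = 38; r = -0.33 without the 2 farthest). Whether library quality has a part in these relations was not tested. At 6 months *Abhd1* with *Htt* in the LacQ140 cortex gave r = -0.48 (permutation p = 0.0085, adjusted 0.034; rho = -0.37, permutation p = 0.028, adjusted 0.097; n = 30; r = -0.42 without the 2 farthest), but within the 27 mice that did not stand apart r was -0.35 (permutation p = 0.10, adjusted 0.25; rho = -0.25, permutation p = 0.23). In WT mice no relation of *Abhd1* with *Preb* or *Htt* passed the adjustment.

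The 4 mice that stood apart at *Abhd1* were read at other genes, which were chosen after their values were seen. *Htt* in the 6-month striatum was at 72.4 CPM in LacQ140_A F4, 88.3 in LacQ140_A M5 and 91.8 in LacQ140_2M M4, where WT mice ran from 90.4 to 137 CPM and the other LacQ140 mice from 73.2 CPM up into that range. *Ddit4l*, a regulator of mTOR signalling that is lower in LacQ140 striatum, was at 24.6, 25.3 and 21.4 CPM in these 3 mice, all below the WT range of 25.6 to 40.2 CPM and inside the range of their own groups (19.1 to 30.8 and 16.9 to 24.2 CPM). In cortex *Htt* was at 82.4 CPM in F4, inside its group, but at 95.1 in M5 and 94.2 in M4, above the other mice of their groups (at most 87.5 and 91.9 CPM) and inside the WT range of 90.9 to 145 CPM. WT + IPTG F2 had 151 CPM of *Htt* in striatum, inside the WT range of 118 to 163 and above the LacQ140 range of 71.4 to 124. In the same library *Ddit4l* (37.1 CPM against 5.47 to 12.2 in LacQ140 mice), *Gpx6*, a glutathione peroxidase (15.5 against 0.459 to 4.41 CPM), and *Wt1*, a zinc finger transcription factor (0.146 against 0.888 to 5.99 CPM), all lay clear of the LacQ140 mice. *Gpx6* in the 6-month striatum was at 11.9 CPM in F4 and 8.42 in M5, where the rest of their group ran from 4.38 to 15.6 CPM and WT mice from 8.68 to 14.5, and at 8.58 in M4, above the rest of its group (4.07 to 8.38 CPM). *Wt1* overlapped between the genotypes at that age. At *Htt* in striatum F4 lay below the rest of its group (77.5 to 99.9 CPM). At *Ddit4l* in striatum the 3 mice at 6 months lay within their groups, while at *Gpx6* and *Htt* some lay within the WT range or above their group. Their summed counts, 38776588 to 56586908, were inside the range of the other libraries.

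Of the other genes of proximal chromosome 5, some stood apart in these mice and some did not. *Gm6089* and *Gm5067*, processed pseudogenes, and *5031410I06Rik*, a protein-coding gene, start at -8.69, -8.75 and -8.66 Mb from the *Htt* start and were called higher in LacQ140 mice in 6, 5 and 6 of 8 comparisons. Reads of such genes can be split among near-identical copies, so their levels are uncertain. In the 6-month striatum *5031410I06Rik* was at 0.14, 0 and 0 CPM in LacQ140_A F4, LacQ140_A M5 and LacQ140_2M M4, against 0.226 to 1.18 CPM in the other LacQ140 mice and 0 to 0.579 in WT mice. In cortex it was at 0 CPM in each of them, against 0.126 to 0.78 in the other LacQ140 mice and 0 to 0.416 in WT mice. In WT + IPTG F2 at 12 months it was at 0.681 CPM in striatum and 0.254 in cortex, above the rest of its group (at most 0.444 and 0.189 CPM). *Gm6089* in the 6-month striatum of F4, M5 and M4 was at 0, 0.108 and 0.136 CPM, against 0.282 to 1.38 CPM in the other LacQ140 mice and 0.0329 to 1.25 in WT mice. In cortex it was at 0.0218, 0.0779 and 0 CPM, against 0.104 to 0.654 in the other LacQ140 mice and 0 to 0.193 in WT mice. In WT + IPTG F2 at 12 months *Gm6089* was at 2.26 CPM in striatum and 0.280 in cortex, above the other WT mice (at most 0.915 and 0.237 CPM). All 4 mice thus lay outside the rest of their own group at *Gm6089* in striatum and cortex, but WT and LacQ140 mice overlapped at this gene, so its level does not separate the genotypes. *Prkag2*, a subunit of AMP-activated protein kinase at -9.9 Mb that was called lower in 4 of 8 comparisons, did not set the mice apart in the same way. In the 6-month striatum it was at 54.0 CPM in F4, below the WT range of 61.8 to 84.5 and inside its group (51.9 to 70.5 CPM), at 73.9 in M5, above that group, and at 67.5 in M4, inside its group (58.7 to 73.8 CPM). *AI506816*, a processed transcript at -11.06 Mb called lower in 4 of 8, was above the rest of their groups in all 3 mice there, at 3.09 and 3.60 CPM in F4 and M5 (others 1.62 to 2.84) and 2.92 in M4 (others 1.60 to 2.56), inside the WT range of 1.25 to 3.97 CPM. *Gm5067* was below the rest of their groups, at 0.631, 0.604 and 0.856 CPM against 1.15 or more in the other LacQ140 mice and 0.654 to 1.38 in WT mice. In WT + IPTG F2 *Gm5067* was at 2.14 CPM in striatum, above its group (0.727 to 1.75 CPM), while *AI506816* and *Prkag2* lay inside its group. In cortex *Gm5067* and *AI506816* were less uniform, with *Gm5067* of F2 at 0.941 CPM, inside its group (0.0574 to 1.44 CPM), and *AI506816* of F4 at 3.10 CPM, inside its group (1.65 to 3.23 CPM).

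*Galnt11*, an enzyme that starts O-linked glycosylation, was the gene most like *Abhd1* over all libraries, among 13712 genes with a mean of at least 1 CPM in every tissue and age. It lies at chr5:25221904-25265918, and its Pearson's r with *Abhd1* on log2(CPM + 0.5) was 0.80 and 0.66 in 6-month striatum and cortex (50 libraries each) and 0.58 and 0.62 at 12 months (57 and 60 libraries). These libraries share the groups and the scaling, and the values are a description without a test. *Galnt11* was at 37.2 ± 2.13 CPM in WT + IPTG and 42.2 ± 2.13 in LacQ140 in the 6-month striatum (SD, n = 10 each), a log2 difference of 0.18. In 6-month cortex, 12-month striatum and 12-month cortex the same difference was 0.15, 0.11 and 0.28, and for LacQ140_A against WT it was 0.17, 0.08, 0.29 and 0.30 in 6-month striatum, 6-month cortex, 12-month striatum and 12-month cortex. The low mice at *Abhd1* were the lowest of their groups at *Galnt11* too, at 33.6, 36.3 and 35.8 CPM in striatum and 35.5, 34.9 and 38.4 CPM in cortex, where the other LacQ140 mice were at 38.3 CPM or more and 39 CPM or more. The libraries of these mice were among those by which *Galnt11* was picked, so that choice favoured their low values. WT + IPTG F2 was at 40.8 CPM in the 12-month striatum and 33.4 in cortex, among the high values of its group, but WT + IPTG M3 was higher still, at 42.4 and 35 CPM, with *Abhd1* at the WT level.

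**Figure D4:**
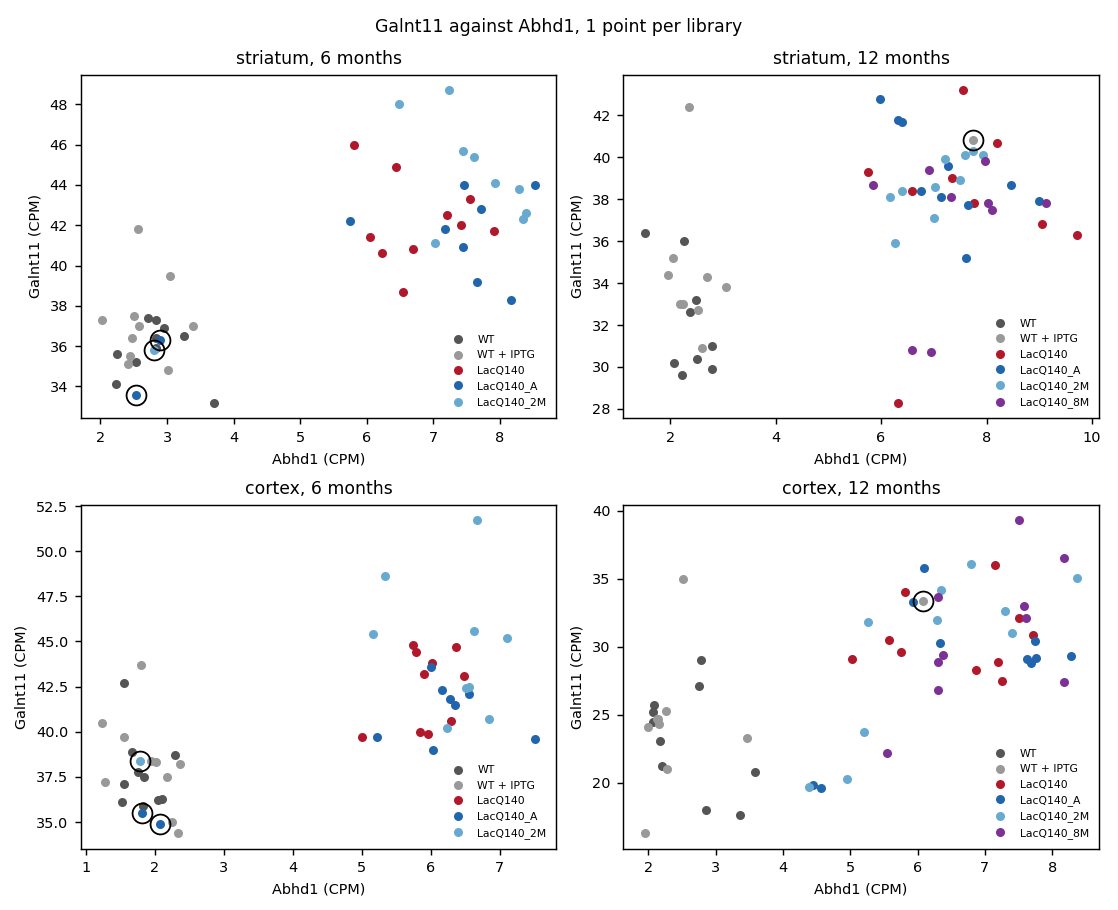
*Galnt11* (y axis, CPM, not from 0) against *Abhd1* (x axis, CPM, not from 0), 1 point per library, in 4 panels of tissue and age, coloured by group, with the 4 mice that stood apart ringed. The 3 ringed mice at 6 months lie low on both axes and the ringed mouse at 12 months lies high on both, while WT + IPTG M3 (42.4 and 35 CPM of *Galnt11*) is high at *Galnt11* alone. *Galnt11* was picked by its likeness to *Abhd1* over these same libraries.

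The next genes by likeness were on other chromosomes. *Prob1* (lowest r over the 4 combinations 0.56), *Acy3*, an aminoacylase (0.48), *Tmc6*, a transmembrane channel-like protein (0.45), and *Chdh*, the choline dehydrogenase of mitochondria (0.42), were higher in LacQ140 than in WT + IPTG in the 12-month striatum, by 0.95, 1.08, 0.48 and 0.87 on the log2 scale. Since *Abhd1* itself separates the genotypes, genes picked for their likeness to it had to differ between them, and these differences are given without a test. In the 6-month cortex the same differences were 0.24, 0.35, 0.11 and 0.19, and in the 12-month cortex 0.68, 0.70, 0.22 and 0.99. LacQ140_A differed from LacQ140 by -0.05, 0.22, 0.02 and 0.01 in the 12-month striatum and by -0.26, -0.23, -0.06 and -0.32 in cortex. In that striatum these genes, like *Abhd1*, were thus about as high or higher in LacQ140_A. The genes most like *Preb* were *Ciz1*, a nuclear zinc finger protein (lowest r 0.66), *Slc4a3*, an anion exchanger (0.63), and *Atxn2l*, a relative of ataxin-2 (0.60), and none of them was called between LacQ140 and WT + IPTG or between LacQ140_A and WT in any tissue or age.

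The 6 other genes within 50 kb of *Abhd1* or *Preb*, which are *Agbl5*, *Ost4*, *Emilin1*, *Khk*, *Cgref1* and *Tcf23*, were tested in all 4 combinations of tissue and age and none was called in LacQ140 against WT + IPTG or in LacQ140_A against WT. *Agbl5*, a carboxypeptidase that trims tubulin, chosen after its values were seen, had an adjusted p of 0.02 in the 6-month striatum with a difference of 0.21 (SE 0.0630), under the 20% bound. From 1 Mb before *Abhd1* to 1 Mb after *Htt* the tables hold 202 further genes. Of these, 7 rose and 5 fell among 168 tested (7.14%) in LacQ140 against WT + IPTG in the 6-month striatum and 9 rose and 10 fell among 170 (11.2%) at 12 months, beside 7.93% and 9.44% of all genes, with 0 in cortex at either age. For LacQ140_A against WT the calls were 2 of 168 (1.19%) and 6 of 170 (3.53%) in striatum, 1 of 169 in the 6-month cortex and 0 of 168 in the 12-month cortex, beside 0.91%, 3.15%, 0.425% and 0.0174% of all genes. Median log2 fold changes over these genes ran from -0.03 to 0.05.

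6 genes of that region passed in both comparisons in the same direction in 1 combination of tissue and age, 2 in the 6-month and 4 in the 12-month striatum. These are 1.19% and 2.35% of the region's tested genes, beside 0.505% and 2.4% of all genes, and in cortex 0 did, beside 0.05% at 6 months and 0.0087% at 12 months. *Dpysl5*, a collapsin response mediator of growing axons, rose in the 6-month striatum by 0.42 in LacQ140 and 0.34 in LacQ140_A (adjusted p = 2.6e-05 and 0.0079), and *Ppp1cb*, a catalytic subunit of protein phosphatase 1, fell by 0.37 and 0.26 on the log2 scale there (adjusted p = 8e-05 and 0.038). At 12 months *Zfyve28* fell by 0.52 and 0.31 on the log2 scale and *Adra2c*, an alpha-2 adrenergic receptor of the striatum, by 0.51 and 0.39. *Dok7*, an adaptor of the muscle receptor kinase MuSK, rose by 0.27 and 0.36, and *Gm2420* rose by 2.82 and 2.51. None of the 6 was called in cortex in either comparison, where the *Abhd1* differences were 1.28 to 1.65.

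By distance from the start of *Htt*, among genes with a mean of at least 1 CPM, and leaving out *Abhd1*, *Preb* and *Htt*, calls were not most frequent in the class of 2 to 5 Mb, the distance of *Abhd1*. In LacQ140 against WT + IPTG, 4 of 68 genes of that class (5.88%) were called in the 6-month striatum and 12 of 67 (17.9%) at 12 months, beside 15.4% and 17.8% of the genes on other chromosomes. Within 1 Mb of *Htt* the same comparison called 5 of 28 (17.9%) and 11 of 28 (39.3%), and LacQ140_A against WT called 0 and 3 of 28 (10.7%). In LacQ140_A against WT, 3 of 68 genes of that class (4.41%) were called in the 6-month striatum and 3 of 67 (4.48%) at 12 months, beside 1.75% and 6.33% of the genes on other chromosomes. In the class of 5 to 10 Mb the same comparison called 6 of 33 (18.2%) and 7 of 33 (21.2%). In cortex 0 genes of these classes were called in either comparison at either age, apart from 1 of 33 at 5 to 10 Mb in LacQ140 against WT + IPTG at 6 months. On other chromosomes the cortical shares were 2.0% and 0.196% for LacQ140 and 0.749% and 0.0291% for LacQ140_A at 6 and 12 months, so few or no calls in classes of this size are no result. Over all tables, *Abhd1* was the 1 gene called in all 8 comparisons of LacQ140 with WT + IPTG and of LacQ140_A with WT, which is what chose it. In at least 6 of 8, 5 genes were called higher and 6 lower. Of these 3 higher and 1 lower are on chromosome 5, namely *Abhd1*, *Gm6089* and *5031410I06Rik* and, lower, *Htt*. The others lie on other chromosomes, among them *Homer1* of chromosome 13, a scaffold protein of glutamate synapses, chosen after its values were seen, with calls in 7 of 8.

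**Figure D5:**
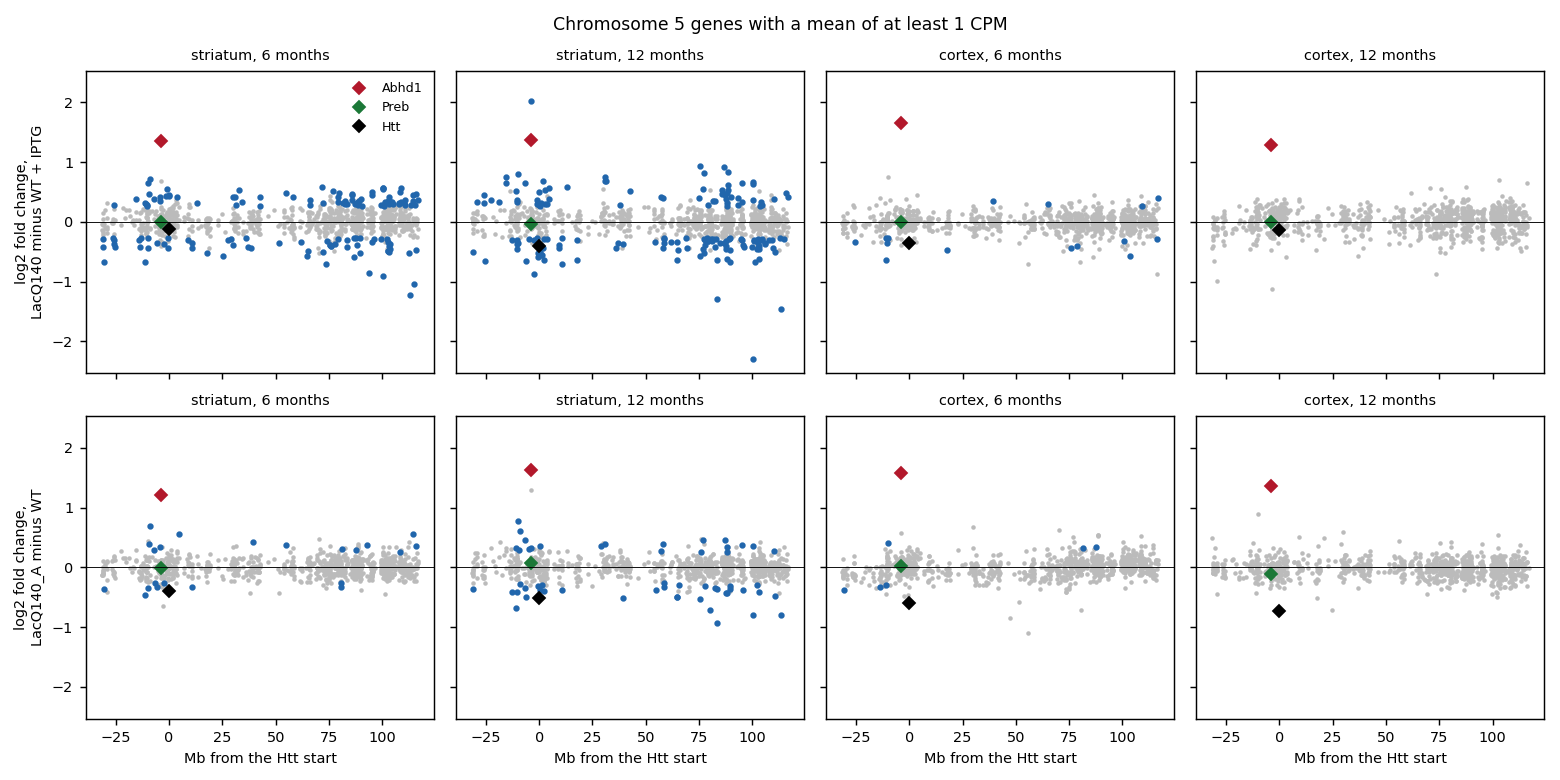
Log2 fold change (y axis) of chromosome 5 genes with a mean of at least 1 CPM against the distance of their start from the *Htt* start in Mb (x axis), for LacQ140 minus WT + IPTG (top) and LacQ140_A minus WT (bottom) in 4 combinations of tissue and age; blue points are called, grey ones not, and diamonds mark *Abhd1* (red), *Preb* (green) and *Htt* (black). *Abhd1* lies between 1.21 and 1.65 in all 8 panels, and *Preb* between -0.11 and 0.07.

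Of 20 other alpha/beta hydrolase domain genes, all tested in every combination, 2 fell in LacQ140 against WT + IPTG in the 6-month striatum, 1 rose in the 12-month striatum and 1 fell in the 12-month cortex. These are 10%, 5% and 5% of the list, beside 7.93%, 9.44% and 0.0899% of all genes, and in the 6-month cortex 0 of 20 were called, beside 0.881%. The striatal shares are near those of all genes tested, with medians from -0.06 to 0 over the list and 0 over all genes. Of genes on other chromosomes with a mean of at least 1 CPM, 15.4% and 17.8% were called there at 6 and 12 months. The list thus shows no excess of calls in striatum. *Abhd3*, which cleaves phosphatidylcholines with medium-chain fatty acids, fell by 0.27 on the log2 scale (SE 0.0533, adjusted p = 0.0002) and the sparsely read *Abhd12b* by 2.84 (SE 0.547, adjusted p = 6e-05). In LacQ140_A against WT *Abhd12b* differed by -0.26 (SE 1.16) in the 6-month striatum and by 2.06 (SE 0.85) in the 12-month striatum, and neither was called. *Abhd14b* rose by 0.36 at 12 months (SE 0.0836, adjusted p = 0.00092), and *Abhd6*, a monoacylglycerol lipase that degrades the endocannabinoid 2-arachidonoylglycerol, fell by 0.35 in the 12-month cortex (SE 0.0750, adjusted p = 0.028). *Abhd2*, a lipase activated by progesterone in sperm, differed by 0.08 in the 6-month striatum (adjusted p = 0.56) and by -0.17 in the 12-month striatum (adjusted p = 0.044), under the 20% bound. In LacQ140_A against WT 1 of the 20 was called, *Abhd6* in the 6-month cortex (-0.28, adjusted p = 0.0077), which is 5% of the list beside 0.425% of all genes, and 0 were called when only the groups compared were fitted.

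Of 23 partners of *Preb* in the COPII coat and at the exit sites of the endoplasmic reticulum, 1 was called in LacQ140 against WT + IPTG over the 4 combinations, *Mia2*, a cargo receptor for large secreted proteins, which fell by 0.27 on the log2 scale in the 6-month striatum (SE 0.05, adjusted p = 6.2e-05), and 0 in LacQ140_A against WT, with list medians from -0.05 to 0.05 (5 alternative fits call 2). The 1 call is 4.35% of the list in the 6-month striatum, beside 7.93% of all genes, and the 0 calls of the other combinations stand beside 9.44% in the 12-month striatum and 0.881% and 0.0899% in cortex. For LacQ140_A the shares of all genes were 0.91% and 3.15% in striatum and 0.425% and 0.0174% in cortex. *Sar1a*, the GTPase that *Preb* activates, differed by 0.01 (SE 0.0346, adjusted p = 0.91) in the 6-month striatum and by -0.02 (SE 0.0460, adjusted p = 0.99) in the 6-month cortex, and *Sar1b*, its close relative, by -0.16 and 0.05 (adjusted p = 0.28 and 0.96).

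In bulk tissue, fewer cells of a type and less RNA per cell cannot be told apart. With both WT groups pooled and all LacQ140 groups pooled, the ranges of the summed level of each of 8 cell type marker lists overlapped in all 32 combinations of list, tissue and age. Between LacQ140 and WT + IPTG the lists that did not overlap were those of oligodendrocytes in the 6-month striatum, with 12000 to 15500 CPM in WT + IPTG and 9170 to 11500 in LacQ140 (3 of 5 markers called lower), and of spiny neurons in the 12-month striatum (6 of 6 called lower), with 4440 to 6500 CPM in WT + IPTG and 2840 to 3570 CPM in LacQ140, and they were at 3460 to 4510 CPM in LacQ140_A, where *Abhd1* was at its LacQ140 level. By single markers, LacQ140 against WT + IPTG in the 6-month striatum called lower 6 of 6 spiny neuron markers (median -0.36 on the log2 scale), 3 of 5 microglial, 2 of 5 astrocyte, 2 of 6 cortical neuron and 1 of 4 choroid plexus markers beside the oligodendrocyte ones, where 7.93% of all genes were called. At 12 months it called lower 2 of 5 oligodendrocyte markers and 1 each of the astrocyte, microglial, endothelial and choroid plexus lists beside the spiny neuron ones (median -0.80), and higher 2 of 6 cortical neuron markers and 1 of 4 ependymal ones, where 9.44% of all genes were called. LacQ140_A against WT called lower 6 of 6 spiny neuron markers in the 12-month striatum (median -0.53) and 0 of 6 at 6 months, 1 of 5 oligodendrocyte markers in striatum at each age, and of the 5 astrocyte markers 1 in striatum at 12 months and 2 in cortex at 6 months. The shares of all genes called there were 0.91% and 3.15% in striatum at 6 and 12 months and 0.425% in the 6-month cortex. The part of cell makeup in the *Abhd1* values was not tested. In the 6-month cortex the cortical neuron markers ran from 1100 to 1510 CPM in WT + IPTG and from 1100 to 1530 CPM in LacQ140, the astrocyte markers from 3450 to 4600 and from 2760 to 3950 CPM, and the endothelial markers had means of 241 and 220 CPM, and none of the astrocyte or endothelial markers was called there in LacQ140 against WT + IPTG.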

How the data were processed

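RNA-Seq libraries of striatum and cortex (paired-end) were quantified per gene by the authors, who deposited expected counts in 1 table per age. The aligner, the counting tool and its strand setting are not given in the sources used here, and the labels name GRCm38. Of the nonzero values 32.22% were not whole, and the expected counts were rounded before testing. Summed counts ran from 33292057 to 68038831 per library, and the precision of a value is the spread between mice, each replicate being a separate mouse.

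Within each tissue and age, genes with at least 1 count were scaled with TMM and fitted with group means in edgeR 4.0.16 (R 4.3.3), with all groups sharing the estimate of the spread. The quasi-likelihood test was used with Benjamini-Hochberg adjustment over all genes, and a gene was called at an adjusted p under 0.05 with a change of at least 20%. SE is the standard error of the log2 fold change, and intervals are at 95%. Tissues were compared in a fit of both tissues at 1 age. Relations were permuted within groups in Python 3.11.15 with a pseudocount of 0.5 CPM. Alternatives were DESeq2 1.42.0, its size factors, filterByExpr, sex as a covariate, a replicate block, and fits of only the groups compared, and, added after the data were seen, fits without the 4 mice. The fits were tested on simulated data.

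The members and gene lists were chosen with earlier results of these data known. No test is therefore given for the comparisons that chose *Abhd1* and *Preb*, or for differences between these, among them IPTG in WT mice. The same holds for genotype differences of genes picked for likeness. Named genes were the members and *Htt*, called neighbours within 50 kb, up to 12 genes from 1 Mb before *Abhd1* to 1 Mb after *Htt* called in the same direction in both genotype comparisons, *Abhd2*, *Abhd3*, *Sar1a*, *Sar1b* and up to 4 called genes per list, and the 5 and 3 genes most like *Abhd1* and *Preb* by their lowest correlation. *Agbl5*, *Gm6089*, *Gm5067*, *5031410I06Rik*, *Ddit4l*, *Gpx6*, *Wt1*, *Prkag2*, *AI506816* and *Homer1* were picked after their values were seen.

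Replicate numbers shared between groups did not pair the mice: deviations of same-numbered mice correlated at 0.0617 to 0.0804 on average and those of other numbers of the same sex at 0.0398 to 0.116. Striatum and cortex were paired by the mouse in the relations and in the counts of mice with the higher tissue. The tissue tests had no mouse term, except where the mouse is named as a block.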

Additional observations from a re-analysis of the deposited data

Results flagged for a closer look

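For *Abhd1*, *Preb* and *Htt*, each in 22 groups of 9 or 10 libraries (66 tests), 7 values lay farther from the rest of their group than Dixon's limit allows, and chance alone flags about 1 group in 20. For *Abhd1* these were LacQ140_2M M4 at 6 months, lowest at 2.80 CPM in striatum and 1.79 CPM in cortex, and WT + IPTG F2 at 12 months, highest at 7.75 CPM in striatum and 6.08 CPM in cortex. LacQ140 M2 was the lowest of its group in the 6-month cortex at 5.00 CPM, still above every WT mouse. LacQ140_A F4 and M5 were not singled out in this way, since 2 low mice in a group lie close to each other.

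For *Preb*, LacQ140_A F4 was the highest of its group in the 6-month striatum at 64 CPM, and LacQ140_8M F3 the lowest in the 12-month cortex at 36.4 CPM.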

How the results depend on the processing

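Of 554 values under alternatives for 102 results, 543 kept their direction and their side of the threshold, or stayed within the spread, and no called value changed sign. Leaving aside the fits without the 4 mice, *Abhd1* ranged from 1.28 to 1.67 for LacQ140 against WT + IPTG and from 1.2 to 1.64 for LacQ140_A against WT, and *Preb* stayed within -0.11 to 0.09 in all comparisons between groups. The genotype difference of *Abhd1* between tissues at 6 months, which carries no test, was -0.31 with the mouse as the pairing block and -0.32 without the 4 mice, with smaller SEs. The replicate block, for numbers that do not pair the mice, gave 2 COPII calls against 1, as did filterByExpr, sex as a covariate, only the groups compared and the fit without the 4 mice (2 each), and changed no other call. The alpha/beta hydrolase list had 0 calls for LacQ140_A against WT with only the groups compared. Without the 4 mice, r was -0.35 for *Abhd1* with *Htt* in 6-month cortex, 0.23 for *Abhd1* and 0.63 for *Preb* between tissues at 6 months. The cause of these changes was not tested. With 61 to 455 *Abhd1* reads per library, isoforms and strand were not resolved.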
